A study of Mus musculus with 6 samples.

Results

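The Pramel and Pramef genes Pramel4, Pramel5, Pramel6, Pramef6, Pramef8, Pramef12, Pramef17, Pramef25 and BC061212 are members of the mouse PRAME family, and make up 9 of the 51 family genes found among the 53390 genes in the files. They were chosen by their estimated counts and TPM in the same 6 libraries, with their differences between media already known. Every difference between media given for these 9 genes is therefore a description. PRAME family proteins are built of leucine-rich repeats, and several act as substrate receptors of cullin 2 ubiquitin ligases. The mouse genes lie in clusters of many similar copies, and most are active in germ cells and the early embryo. Pramel7 is known for directing the breakdown of Uhrf1, the protein that brings the maintenance methyltransferase Dnmt1 to newly copied DNA, and Pramef12 for its need in the stem cells of the male germ line.

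Expression was measured in TKO mouse embryonic stem cells, in which Dnmt1, Dnmt3a and Dnmt3b are all inactivated, so that both groups lack functional DNA methyltransferases. The line derives from male J1 cells of the 129S4/SvJae strain and was grown on gelatin without feeder cells. In the TKO-serum group the cells grew in DMEM with 15% FCS and LIF at 500 U/ml. In the TKO-2i group they grew in N2B27 medium with LIF at 1000 U/ml, 1 µM of PD0325901, which inhibits MEK, and 3 µM of CHIR99021, which inhibits Gsk3 beta, so the basal medium, the serum, the LIF dose and both inhibitors differ together and cannot be told apart. Each group had 3 libraries, made from 500 ng of RNA with poly(A) selection and a stranded kit, and the labels call them biological replicates; the p-values measure the spread between these samples. Replicates 1, 2 and 3 of TKO-2i held 46228700, 44180642 and 43896549 estimated counts, and those of TKO-serum held 38274042, 51932739 and 44827609. Values of single libraries are given in the order of the replicate numbers.

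Transcript levels of the 3 inactivated methyltransferase genes came first, as a check of the labels. Dnmt1 stood at 29.1, 34.6 and 29.3 TPM (a level scaled for transcript length and library size) in TKO-2i and 25.7, 28.6 and 27.9 TPM in TKO-serum. Dnmt3a stood at 4.31, 5.19 and 4.54 TPM in TKO-2i and 21.3, 23.0 and 22.8 TPM in TKO-serum. Dnmt3b stood at 6.71, 9.53 and 8.49 TPM in TKO-2i and 18.8, 20.9 and 20.7 TPM in TKO-serum. RNA was thus read from all 3 genes in all 6 libraries, and a sum over transcripts that includes exons outside the deleted parts checks nothing about the knockout. No library with intact genes was at hand.

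The stem cell label was checked on 8 markers, which all passed the filter on low counts. Dppa5a, the most abundant of them, had 2535, 2081 and 2206 TPM in TKO-2i and 2885, 2463 and 2630 TPM in TKO-serum. Pou5f1, the core pluripotency factor also called Oct4, had 1057, 982 and 1012 TPM in TKO-2i and 1249, 1249 and 1253 TPM in TKO-serum, with an adjusted p of 0.093 in edgeR's test at a log2 fold change of -0.18. Its call rests on the setting: it passed the threshold, as lower in TKO-2i, with at least 10 counts in every sample (-0.22), with length-scaled TPM counts (-0.20), with limma on log2(TPM + 1) and log2(TPM + 0.1) (-0.30 in both), with the replicate block (-0.19) and without TKO-2i replicate 1 (-0.26), and did not in the other 8 settings. Among the 8 markers 2 rose in TKO-2i, 3 fell and 3 did not pass the test, where 62.5% of all tested genes were called; the median of their log2 fold changes was -0.16, beside 0.01 over all 18177 genes tested. Nanog rose by 0.60 on the log2 scale (standard error 0.06, adjusted p = 2.7e-05), higher in all 3 TKO-2i libraries than in any TKO-serum library. The markers were abundant in both groups.

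Pramef12 was the most abundant of the 9 genes in both media and was higher in 2i, as were Pramef8, Pramel6 and Pramef17. Pramef6, Pramef25 and BC061212 were read in serum alone, at under 2 TPM, and Pramel4 and Pramel5 were near the floor of detection in both. Of the 9 genes, 7 passed edgeR's filter and all 7 were called at an adjusted p under 0.05, where 62.5% of all tested genes were. In TKO-2i 4 were called higher (31.9% of all tested genes were called higher) and 3 were called lower (30.6% of all tested genes were called lower). In the same 7 genes the CPM values (counts scaled to library size) of the groups did not overlap, as in 67.5% of tested genes, of which 34.0% were higher and 33.5% lower. Because the genes were chosen from this contrast, nothing is read from these counts, and the 3 lower genes passed the filter through their serum libraries, so that they had to differ. In RNA from whole cultures, fewer cells expressing a gene and less RNA per cell cannot be told apart.

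**Figure D1:**
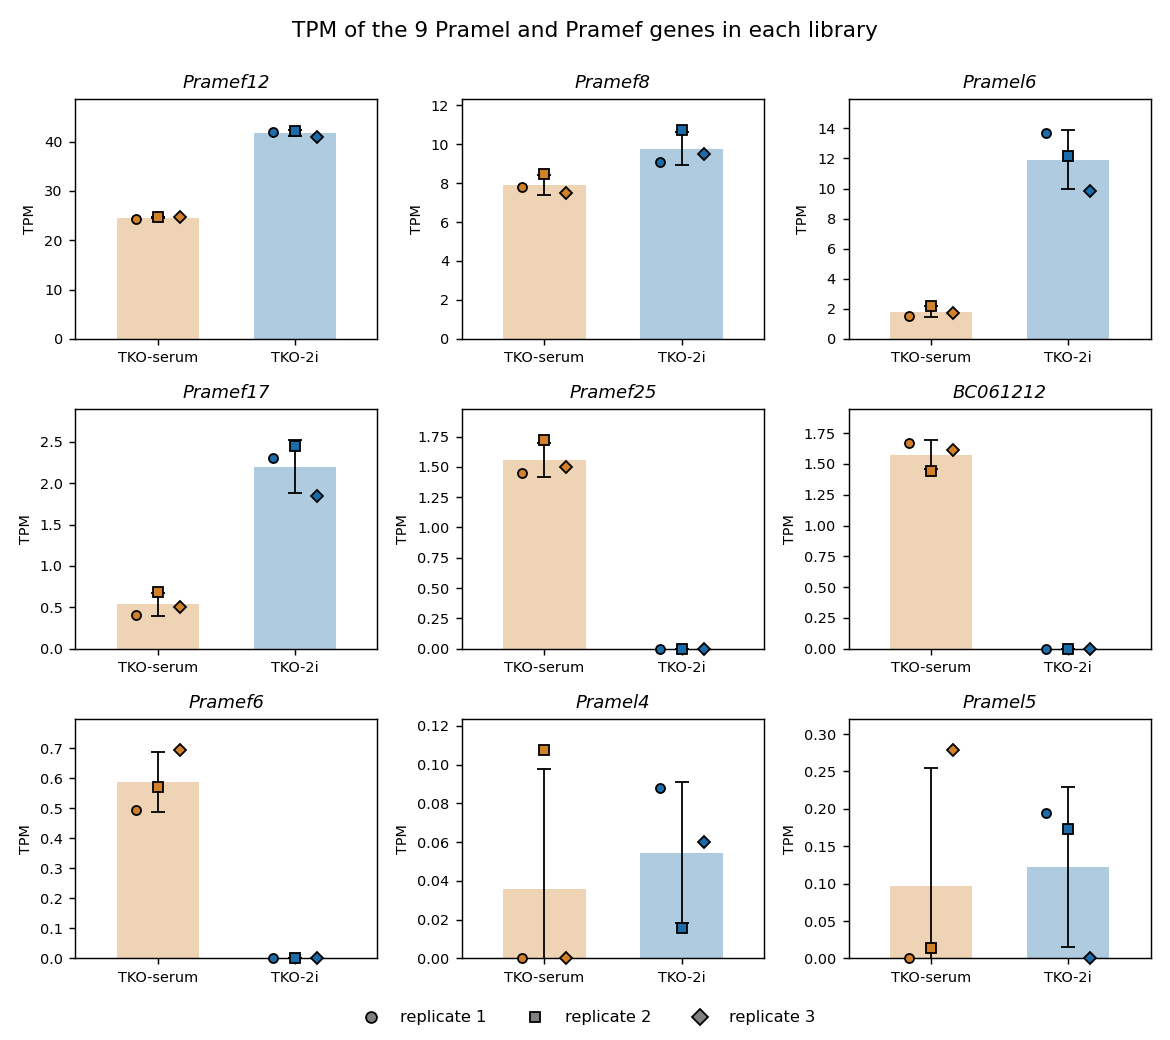
TPM of each of the 9 genes in the TKO-serum (orange) and TKO-2i (blue) libraries, with 1 panel and 1 scale per gene; bars are means, error bars are 1 SD (n = 3) and symbols are replicates 1 to 3. Pramef12, Pramef8, Pramel6 and Pramef17 are higher in 2i, Pramef25, BC061212 and Pramef6 are at 0 in 2i, and Pramel4 and Pramel5 overlap.

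Pramef12 (ENSMUSG00000028591) spans 144391674 to 144408464 on chromosome 4 (GRCm38, minus strand) and is named Pramel13 in RefSeq. Its level was 42.0, 42.1 and 41.0 TPM in TKO-2i and 24.4, 24.7 and 24.7 TPM in TKO-serum. The 3 TKO-2i libraries all stood above the 3 TKO-serum libraries, and the replicates of each medium lay close together, with coefficients of variation of 1.42% and 0.690% of the TPM. On the CPM scale the means were 71.1 ± 3.53 in TKO-2i and 38.1 ± 0.815 in TKO-serum (SD, n = 3). The fitted log2 fold change of 0.90 (standard error 0.05) is a 1.87-fold difference. The longer of its annotated transcripts, of 2460 bases, held between 94.1% and 96.3% of the gene's counts in every library, a share that favours long transcripts. On the TPM scale, which allows for length, the shorter transcript of 601 bases had 7.61, 6.78 and 7.75 TPM in TKO-2i and 5.80, 4.84 and 5.74 TPM in TKO-serum, a minor part of the gene in each library. An antisense gene on the other strand, Pramef12os, had 0.624, 0.379 and 0.481 TPM in TKO-2i and 0.559, 0.272 and 0.666 TPM in TKO-serum. These ranges overlap, and the antisense gene did not pass the filter.

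Pramel6 (ENSMUSG00000025838) spans 87506565 to 87510872 on chromosome 2 (plus strand), away from the large cluster. It had 13.7, 12.2 and 9.81 TPM in TKO-2i and 1.53, 2.19 and 1.72 TPM in TKO-serum. The lowest TKO-2i library was above the highest TKO-serum library by more than the range within either medium. The means were 11.9 ± 1.96 TPM and 1.81 ± 0.340 TPM (SD, n = 3), and the fitted log2 fold change of 2.68 (standard error 0.14) is a 6.40-fold difference, the largest of the 4 higher genes. Its main transcript, of 1540 bases, held 59.5%, 65.7% and 68.0% of the gene's counts in TKO-2i and 80.9%, 74.7% and 91.2% in TKO-serum. The longest annotated transcript, of 1781 bases, held 17.6%, 16.8% and 16.3% in TKO-2i and 0%, 5.09% and 0% in TKO-serum. The share of the second transcript was higher in each TKO-2i library than in any TKO-serum library, on totals of only 47, 90 and 63 counts for the gene in serum.

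Pramef8 (ENSMUSG00000046862), RefSeq's Pramel12, spans 143412426 to 143421091 on chromosome 4 (plus strand), at the opposite end of the cluster from Pramef12. It had 9.06, 10.7 and 9.52 TPM in TKO-2i and 7.78, 8.49 and 7.50 TPM in TKO-serum. The groups did not overlap, though in TPM the gap between the lowest TKO-2i and the highest TKO-serum library was narrower than the range within either medium. In CPM, with 23.2, 23.6 and 22.5 in TKO-2i and 16.5, 17.9 and 16.6 in TKO-serum, that gap was wider than either range. The CPM means were 23.1 ± 0.556 and 17.0 ± 0.788 (SD, n = 3), and the fitted log2 fold change of 0.44 (standard error 0.06) is a 1.36-fold difference, the smallest of the 4. Its transcript of 3260 bases held between 76.1% and 87.7% of its counts in the 6 libraries.

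Pramef17 (ENSMUSG00000078509), RefSeq's Pramel14, spans 143991119 to 143994369 on chromosome 4 (minus strand) and has a single annotated transcript. Its level was 2.30, 2.46 and 1.84 TPM in TKO-2i and 0.412, 0.690 and 0.499 TPM in TKO-serum. All 3 TKO-2i libraries stood above the TKO-serum libraries, and the fitted log2 fold change of 2.09 (standard error 0.19) came from 136, 130 and 105 estimated counts in TKO-2i and 20.3, 43.6 and 28.0 in TKO-serum. The coefficient of variation of its TPM in serum, 26.6%, was the highest among the 7 tested genes.

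The 3 genes that were lower in 2i had no counts there. A fold against 0 counts was computed with a floor of 3 counts in each TKO-2i library, which is between 0.0669 and 0.0704 CPM and covers counting error only. Each bound is the lowest TKO-serum CPM over the highest of these floors. Pramef25 (ENSMUSG00000078511; chromosome 4, minus strand, 143948580 to 143951016; RefSeq's Pramel16) had 0 counts in each TKO-2i library and 69.1, 104 and 81.9 estimated counts in TKO-serum, or 1.45, 1.72 and 1.5 TPM. It was at least 25.4-fold lower in TKO-2i. BC061212 (ENSMUSG00000072822; chromosome 5, minus strand, 94066151 to 94070545; RefSeq's Pramel37) had 0 counts in each TKO-2i library and 89.7, 99.7 and 99.7 in TKO-serum, or 1.67, 1.44 and 1.62 TPM. It was at least 26.7-fold lower. Pramef6 (ENSMUSG00000078512; chromosome 4, minus strand, 143894237 to 143900380; RefSeq's Pramel11) had 0 counts in each TKO-2i library and 22.8, 35.3 and 37.7 in TKO-serum, or 0.495, 0.571 and 0.694 TPM. It was at least 8.48-fold lower. All serum libraries held reads of all 3 genes, and the bounds differ with the serum level that sets them.

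Markers of 2-cell-like cells, a rare state of stem cell cultures that resembles the early embryo, were also lower in 2i. All 16 markers passed the filter and all 16 fell in TKO-2i, where 30.6% of all tested genes were called lower, with a median log2 fold change of -5.52. With at least 10 counts in every sample only 2 of them were called, so that most passed the filter through their serum libraries and had to be lower, and nothing is read from the count or the median. Their summed level was 2.83, 2.49 and 2.23 TPM in TKO-2i and 80.6, 95.5 and 90.2 TPM in TKO-serum. Zscan4f, the most abundant in TKO-serum, had 0.235, 0.210 and 0.142 TPM in TKO-2i and 19.6, 26.8 and 22.8 TPM in TKO-serum. The most abundant in TKO-2i was Tmem92, with 1.391, 1.327 and 1.336 TPM there and 12.05, 13.18 and 14.48 TPM in TKO-serum. No marker of the list was at 0 in all 6 libraries, but only 11, 8 and 8 of the 16 had over 3 counts in the TKO-2i libraries, against 16 in every TKO-serum library. The part of such cells in the lower level of Pramef25, BC061212 and Pramef6 was not tested.

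Pramel4 (ENSMUSG00000073724; chromosome 4, plus strand, 144059126 to 144069327) had 6, 1 and 4 counts in TKO-2i and 0, 8 and 0 in TKO-serum. All of its counts lay on a transcript of 2263 bases that is annotated for nonsense-mediated decay. Pramel5 (ENSMUSG00000036749; chromosome 4, minus strand, 144270633 to 144280488) had 2, 1.5 and 0 counts in TKO-2i and 0, 1 and 7.2 in TKO-serum. In both genes the groups overlap, and neither passed the filter. Pooled CPM are the summed counts of a group's libraries over the sum of their normalised library sizes. The ratio of pooled CPM, TKO-2i over TKO-serum, was 1.44 for Pramel4 (95% exact counting interval 0.528 to 4.13). It was 0.393 for Pramel5 (0.0671 to 1.64), so no difference was detectable at this depth for either gene.

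In TKO-2i the order by mean TPM began with Pramef12 (41.7 ± 0.594), Pramel6 (11.9 ± 1.96), Pramef8 (9.76 ± 0.848) and Pramef17 (2.20 ± 0.320; SD, n = 3 for each). The TPM ranges of Pramel6 and Pramef8 overlapped in 2i, and those of the other neighbours among these 4 did not. In TKO-serum the order was Pramef12 (24.6 ± 0.170), Pramef8 (7.92 ± 0.511), Pramel6 (1.81 ± 0.340), BC061212 (1.58 ± 0.116), Pramef25 (1.56 ± 0.144), Pramef6 (0.587 ± 0.100) and Pramef17 (0.534 ± 0.142; SD, n = 3 for each). Pramel6, BC061212 and Pramef25 had overlapping ranges in serum, as did Pramef6 and Pramef17. The order of Pramel6 and Pramef8 in 2i rests on short processed transcripts of Pramel6. Its main transcript had 5.21, 5.88 and 4.86 TPM in TKO-2i, below the 7.82, 8.48 and 7.26 TPM of the main transcript of Pramef8. Pramef17 was below Pramef25 and BC061212 in serum while those were at 0 in 2i. The 9 genes summed to 67.3, 67.6 and 62.2 TPM in TKO-2i and to 37.7, 39.9 and 38.5 TPM in TKO-serum. Pramef12 alone gave 62.3%, 62.2% and 65.9% of that sum in TKO-2i and 64.7%, 61.9% and 64.1% in TKO-serum.

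Reads shared between copies limit what can be said of single genes. The transcripts of each gene were broken into words of 31 bases, and the share of words found in no other gene of the annotation was counted. It was 100% for Pramef12, 99.8% for Pramef8 and 99.4% for Pramel6, so that reads of these 3 genes had practically no other annotated place to go. It was 59.0% for Pramel5, 50.1% for Pramef6, 20.6% for Pramef25, 19.1% for Pramef17, 12.3% for BC061212 and 8.5% for Pramel4. Pramef17 shared 80.9% of its words with Gm13128, and their transcripts were identical at 1733 of 1745 aligned bases (99.3%). BC061212 shared 75.8% of its words with Gm7978, with no difference over 1446 aligned bases, and Pramel4 shared 88.3% with Gm13102. The levels of these single copies rest on how the quantifier divided the shared reads.

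**Figure D2:**
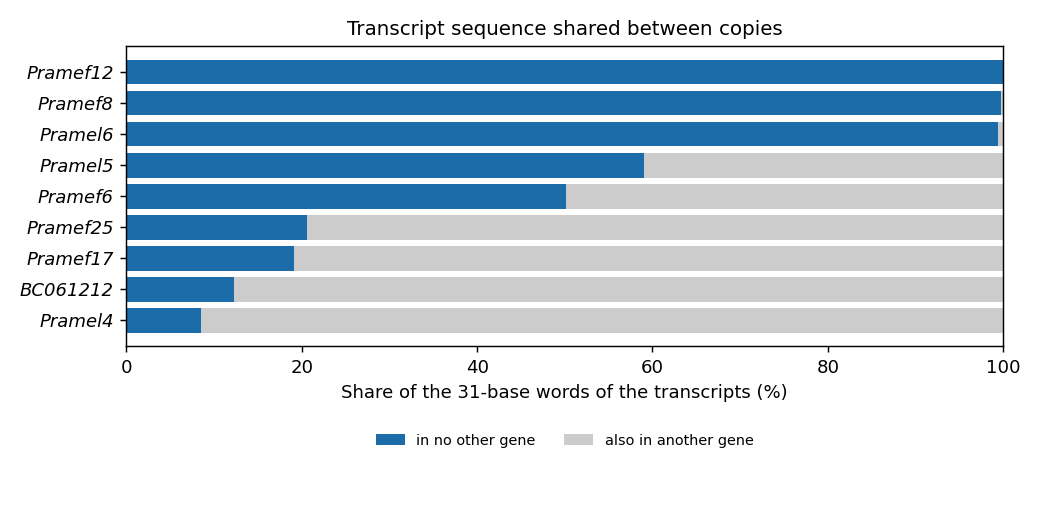
Share of the 31-base words of each gene's transcripts (in percent, horizontal axis) that occur in no other annotated gene (blue) or also in another gene (grey), with 1 bar per gene. Pramef12, Pramef8 and Pramel6 stand at 99.4% or more, and Pramel4, BC061212, Pramef17 and Pramef25 at 20.6% or less.

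The division is visible in copies related to Pramef25, named here after their values were seen. Gm13057 had 50.9 counts in TKO-serum replicate 1 and 0 in the other serum libraries, while Gm13043 had 0, 38.9 and 72.1. They share 48.4% and 47.6% of the words of Pramef25, and neither is among the 51 genes matched as family. To set the division aside, each gene was summed with every gene that holds at least 20% of its words, a rule chosen after seeing the data. Pramef25 with 7 other genes had 12.0, 6.0 and 1.0 counts in TKO-2i and 330, 504 and 429 in TKO-serum. That is a ratio of pooled CPM of 0.0158 (95% exact counting interval 0.00946 to 0.0247), or 63.4-fold lower. BC061212 with 7 other genes had 2.4, 0 and 2.7 counts in TKO-2i and 192, 251 and 252 in TKO-serum, a ratio of 0.00753 (0.00244 to 0.0177). Pramef6 with Gm13083 and Gm13078 had 0, 0 and 2.1 counts in TKO-2i and 57.9, 85.0 and 85.5 in TKO-serum, a ratio of 0.00919 (0.00111 to 0.0336). The 0 counts of the single genes in 2i thus come with a few counts on their copies, and the sums were lower in 2i in every library.

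Pramef17 with Gm13128 had 541, 532 and 501 counts in TKO-2i and 101, 144 and 106 in TKO-serum. The sum was higher in each TKO-2i library, with a ratio of pooled CPM of 4.70 (95% exact counting interval 4.18 to 5.29), near the 4.21 (3.35 to 5.36) of Pramef17 alone. Pramef17 supplied 23.5% of this sum in TKO-2i and 26.2% in TKO-serum. Pramel4 and Pramel5 share words with each other and with Gm13102, and the 3 together had 8.0, 2.5 and 4.0 counts in TKO-2i and 11.1, 9.0 and 20 in TKO-serum. That ratio was 0.367 (0.184 to 0.689), but the CPM of the sum overlapped between media, with 0.179 in TKO-2i replicate 1 and 0.170 in TKO-serum replicate 2. Gm13102 had 0 counts in TKO-2i and 11.1, 0 and 12.7 in TKO-serum. These intervals cover counting error only, not the spread between libraries.

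Of the other 42 family genes, 17 had no count in any library and 25, those 17 among them, had at most 3 in every library. The 13 that passed the filter held 2 that rose in TKO-2i, 10 that fell and 1 that was not called, where 31.9% of all tested genes were called higher and 30.6% lower. Of the 10 that fell, 9, all but Pramel1, had under 10 counts in each TKO-2i library and passed the filter through their serum libraries, so that they had to be lower. The counts of directions and the median of tested family genes are largely set by that filter, and nothing is read from them. Their median log2 fold change was -4.71, or -3.92 with the gene at 0 in 2i set to its bound, beside 0.01 over all 18177 genes. Many of the 42 share words with each other, with the 9 or with genes outside the matched family, though Pramel1, Pramef20 and Pramel share none. The share of own words was 91.4% for Pramel7, but 45.6% for Gm12794, 42.4% for Gm13119, 32.1% for BC080695 and 18.7% for Gm13128. It was 9.19% for Pramel3, 6.55% for Gm16429 and 2.35% for Gm6502. The levels of all of these but Pramel7 rest on how shared reads were divided. The 42 genes are those left by a choice of 9 made on values of this contrast, so they are not free of that choice. Pramel7, which lies beside Pramel6 on chromosome 2, had 3.76, 3.85 and 3.77 TPM in TKO-2i and 1.16, 1.22 and 1.11 TPM in TKO-serum. It rose in all 3 TKO-2i libraries, by 1.62 on the log2 scale (standard error 0.12, adjusted p = 8.4e-06). Gm13128, the near copy of Pramef17, had 6.93, 7.65 and 7.01 TPM in TKO-2i and 1.65, 1.60 and 1.40 TPM in TKO-serum. That is a rise of 2.28 on the log2 scale (standard error 0.10). It shares 81.3% of its words with Pramef17, a chosen gene, so this rise too is a description. By TPM Gm13128 stood near the level of Pramef25 in serum, and in 2i between Pramef17 and Pramef8.

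Pramel3 on the X chromosome was the tested family gene that was not called. It had 2.39, 3.54 and 2.35 TPM in TKO-2i and 2.88, 3.66 and 3.15 TPM in TKO-serum, ranges that overlap, and its log2 fold change was -0.15 (SE 0.16, adjusted p = 0.43). Without TKO-2i replicate 2, its highest 2i library, the value was -0.34 and passed the threshold. Pramel1, at the edge of the chromosome 4 cluster, fell by 0.73 on the log2 scale (standard error 0.14), from 1.08, 1.12 and 1.10 TPM in TKO-serum to 0.562, 0.641 and 0.690 TPM in TKO-2i. Gm12794 had 5, 4 and 0 counts in TKO-2i and 145, 260 and 254 in TKO-serum, a ratio of pooled CPM of 0.0143 (95% exact counting interval 0.00651 to 0.0273). Gm13119 had 9.9, 5 and 1 counts in TKO-2i and 141, 240 and 169 in TKO-serum, a ratio of 0.0304 (0.0173 to 0.0499). Gm16429, Gm6502 and BC080695 had at most 3 counts in each TKO-2i library, with ratios of 0.0103 (0.00280 to 0.0266), 0.0202 (0.00411 to 0.0600) and 0.00468 (0.000118 to 0.0263). These 5 genes had under 10 counts in each TKO-2i library and passed the filter through serum. Summed over all 51 genes the family stood at 81.6, 84.0 and 76.6 TPM in TKO-2i and 56.6, 62.5 and 60.5 TPM in TKO-serum. The total was higher in each TKO-2i library through the 9 chosen genes, since the other 42 summed to 14.3, 16.4 and 14.4 TPM in TKO-2i and 18.8, 22.6 and 22.0 TPM in TKO-serum, lower in each TKO-2i library. Of the total over 51 genes Pramef12 alone held 51.4%, 50.1% and 53.5% in TKO-2i and 43.1%, 39.5% and 40.8% in TKO-serum.

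The tested family genes were also counted by chromosome. Both family genes on chromosome 2, Pramel6 and Pramel7, were higher in TKO-2i. On chromosome 5 there were 17 family genes, of which 3 were tested and all 3 were lower. On chromosome 4 there were 27, of which 13 were tested, with 4 higher and 9 lower. Of the 3 on the X chromosome 2 were tested and 1 was lower, and neither of the 2 on chromosome 12 passed the filter. Of the 20 tested family genes on all chromosomes together, 6 were higher and 13 lower, where 31.9% and 30.6% of all tested genes were. Of these 13, 12 had under 10 counts in each TKO-2i library and passed the filter through serum, Pramel1 being the exception, so that nothing is read from the counts by chromosome.

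The cluster on chromosome 4 spans 1014037 bases, from 143394428 to 144408464, and holds 24 family genes, 7 of the 9 among them, with 23 other annotated genes. Of its 11 tested family genes 4 were higher in TKO-2i and 7 lower (31.9% and 30.6% of all tested genes), and all of these 7 but Pramel1 passed the filter through serum, so that nothing is read from the counts. By position, Pramef8 is the nearest family gene to Pramel1, and Pramef17 is in the middle of the cluster near Pramef25. The only tested gene of the cluster outside the matched family, the pseudogene Gm13123, had 7.29, 8.25 and 9.93 TPM in TKO-2i and 8.94, 8.96 and 8.34 TPM in TKO-serum. Its ranges overlap and it was not called. The nearest tested protein-coding genes outside the cluster were Pdpn on the side of Pramel1 and Dhrs3 on the side of Pramef12. Pdpn had 2.19, 2.14 and 1.63 TPM in TKO-2i and 7.88, 7.63 and 8.45 TPM in TKO-serum, lower in all 3 TKO-2i libraries. Dhrs3 had 0.671, 1.08 and 0.445 TPM in TKO-2i and 0.365, 0.434 and 0.265 TPM in TKO-serum, higher in all 3.

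**Figure D3:**
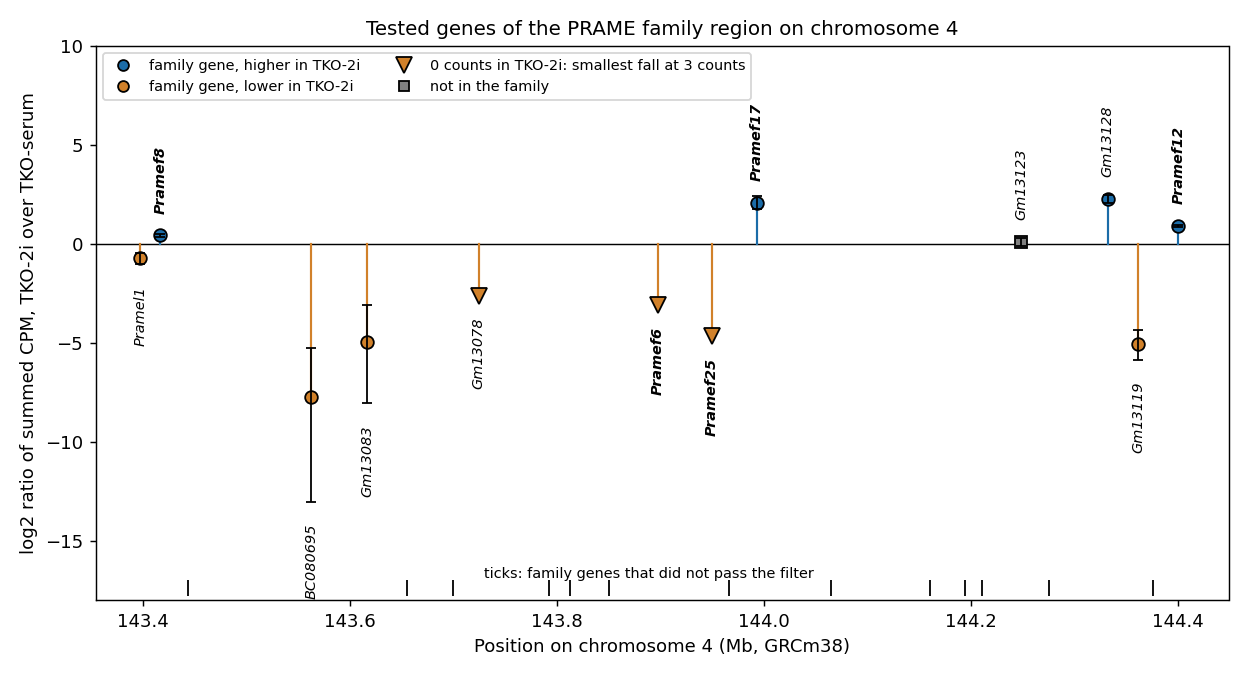
Log2 ratio of pooled CPM (labelled summed CPM on the axis), TKO-2i over TKO-serum, of the tested genes in the PRAME cluster against position on chromosome 4 (Mb, GRCm38). Error bars are 95% exact counting intervals, and 5 of the 9 chosen genes, those tested here, are in bold. Triangles mark genes with 0 counts in TKO-2i at the smallest fall that 3 counts per library allow, and ticks mark family genes under the filter. Higher (blue) and lower (orange) family genes lie among each other, with 4 higher and 7 lower, and the gene outside the family (grey) is near 0.

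RefSeq promoter windows of GRCm38.p6, from 250 bases before to 50 bases after the annotated start, were found for 8 of the 9 genes and for 42 family genes in all; Pramef8 has none in the table. The windows were compared for shared sequence. Pramef6 and BC061212, on different chromosomes and both read in serum alone, share the run GGTGTGGCTAAAA of 13 bases, which begins 71 bases before the start of Pramef6 and 65 before that of BC061212. It is found in 8 of all 32851 promoters (0.0244%), of which 6 belong to family genes. The other 4 family carriers, A430089I19Rik, Gm3147, Gm10424 and Gm7978, had 0 counts in all 6 libraries, and Pramef25, also read in serum alone, lacks the run. At most 3.41% of the words of any of these 4 carriers are its own. Their 0 counts rest on how the quantifier divided the shared reads. The Pramef6 window lies at the start of the transcript that held 68.4%, 45.0% and 52.5% of its counts in TKO-serum. The windows are chr4:143900331-143900630 and chr5:94070496-94070795, both on the minus strand, and are shown because they hold the shared run, in capitals.
Pramef6: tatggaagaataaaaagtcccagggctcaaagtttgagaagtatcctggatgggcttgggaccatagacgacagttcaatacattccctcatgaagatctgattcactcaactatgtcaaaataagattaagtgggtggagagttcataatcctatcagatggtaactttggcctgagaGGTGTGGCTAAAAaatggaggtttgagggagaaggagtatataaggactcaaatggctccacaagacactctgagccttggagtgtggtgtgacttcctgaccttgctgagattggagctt
BC061212: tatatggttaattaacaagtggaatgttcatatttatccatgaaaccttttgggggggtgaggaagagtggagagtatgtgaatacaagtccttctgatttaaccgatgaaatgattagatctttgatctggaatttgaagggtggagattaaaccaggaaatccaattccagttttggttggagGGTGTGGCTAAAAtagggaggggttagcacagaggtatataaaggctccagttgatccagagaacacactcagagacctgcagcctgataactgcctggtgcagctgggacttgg
The window of BC061212 is identical to that of Gm7978 over all 300 bases, and a match is a description of letters, not a site.

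Pramef17 and Gm13128, the near copies that were both higher in 2i, share an unbroken run of 118 bases that is in no other promoter of the 32851. It begins 167 bases before the start of Pramef17 (chr4:143994320-143994619, minus strand) and 166 before that of Gm13128 (chr4:144329999-144330298, plus strand). The RefSeq sequences (GRCm38.p6) are shown to make plain how alike these copies are, with the shared run in capitals.
Pramef17: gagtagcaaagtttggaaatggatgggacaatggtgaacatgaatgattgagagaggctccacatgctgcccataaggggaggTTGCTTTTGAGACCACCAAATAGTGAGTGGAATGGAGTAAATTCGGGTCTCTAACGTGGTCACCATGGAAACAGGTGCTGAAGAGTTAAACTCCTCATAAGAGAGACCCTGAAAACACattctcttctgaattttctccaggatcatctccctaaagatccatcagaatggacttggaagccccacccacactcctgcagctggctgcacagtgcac
Gm13128: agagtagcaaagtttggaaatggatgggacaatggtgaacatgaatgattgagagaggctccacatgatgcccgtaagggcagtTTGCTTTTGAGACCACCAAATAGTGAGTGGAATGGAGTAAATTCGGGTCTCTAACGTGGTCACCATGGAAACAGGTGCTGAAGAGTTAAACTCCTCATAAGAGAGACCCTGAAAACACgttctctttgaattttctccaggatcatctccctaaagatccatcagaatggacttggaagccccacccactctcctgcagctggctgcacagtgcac
Pramel4 and Pramel5 likewise share a run of 111 bases.

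CpG pairs, the sites that DNA methyltransferases act on, were counted in each window of 300 bases. The 42 family promoters had a median of 1 CpG, and all 32851 promoters a median of 7 (quartiles 3 and 20). Among the 8 chosen genes with a window, which leave out Pramef8, Pramef12 had 7, Pramel6 had 3, and Pramef17 and Pramel4 had 2. Pramef6, Pramef25 and BC061212 had 1, and Pramel5 had none. At most 3 CpG were found in 31.4% of all promoters, so few CpG are common outside the family too. The Pramel6 window ends at 87506614 and its main transcript starts at 87508458, so that its count is that of minor transcripts. Pramef12 was the most abundant of the 9 genes and had the most CpG of the 8 with a window. Its window (chr4:144408415-144408714, minus strand) is shown from RefSeq (GRCm38.p6) with each CpG in capitals.
Pramef12: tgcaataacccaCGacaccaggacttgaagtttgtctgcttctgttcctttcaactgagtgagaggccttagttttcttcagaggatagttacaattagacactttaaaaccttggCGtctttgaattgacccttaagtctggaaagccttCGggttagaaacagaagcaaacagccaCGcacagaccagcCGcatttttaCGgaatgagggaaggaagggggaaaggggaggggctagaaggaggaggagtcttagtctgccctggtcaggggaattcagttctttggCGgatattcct
Methylation was not measured in these libraries.

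Letters of 4 known motifs were searched on both strands of the windows. The palindrome TTCNNNGAA of STAT factors was in 0 of the 42 family windows and in 8.30% of all promoters, and TCAAGGTCA of Esrrb in 0 of 42 and 0.423% of all. The TATA box letters TATAAA were in 14 of the 42, BC061212 among them and none of the other 7 chosen genes with a window, and in 13.6% of all promoters. The GC box letters GGGCGG were in 1 of the 42, in none of the 8 chosen genes with a window, and in 35.7% of all promoters. No match says only that these letters are not in this window.

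Genes of the cullin 2 ligase, Uhrf1 and Dnmt1 made up a list of 7, all tested, of which 4 rose in TKO-2i, 1 fell and 2 did not pass the test, so that 5 of 7 were called, near the 62.5% of all tested genes; the median of their log2 fold changes was 0.21. Uhrf1 had 316, 344 and 314 TPM in TKO-2i and 172, 185 and 179 TPM in TKO-serum. It rose in all 3 TKO-2i libraries by 0.97 on the log2 scale (standard error 0.05, adjusted p = 9.6e-07), as the RNA of Pramel7 did. Elob, the adaptor elongin B of the ligase, had 217, 213 and 216 TPM in TKO-2i and 656, 608 and 624 TPM in TKO-serum, and fell by 1.40 on the log2 scale (standard error 0.11) between groups that did not overlap. Eloc, its partner elongin C, had 224, 206 and 213 TPM in TKO-2i and 234, 228 and 221 TPM in TKO-serum and was not called (log2 fold change 0.04, adjusted p = 0.59). The list holds parts with different directions.

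Factors of LIF signalling and naive pluripotency were tested as a list of 9, of which 7 rose in TKO-2i and 2 fell (31.9% and 30.6% of all tested genes), with a median log2 fold change of 0.55. Tfcp2l1, a naive pluripotency factor, had 128, 176 and 136 TPM in TKO-2i and 37.0, 42.1 and 40.4 TPM in TKO-serum. Tbx3 had 118, 137 and 122 TPM in TKO-2i and 46.2, 45.2 and 45.7 TPM in TKO-serum. Both rose, by 1.96 and 1.52 on the log2 scale, with groups that did not overlap. Socs3, a feedback inhibitor induced by LIF, had 49.1, 52.3 and 55.0 TPM in TKO-2i and 69.2, 69.8 and 71.0 TPM in TKO-serum. It fell by 0.32 on the log2 scale (standard error 0.10, adjusted p = 0.019), lower in TPM in all 3 TKO-2i libraries, and did not pass the threshold without TKO-serum replicate 1 (-0.29) or replicate 3 (-0.30).

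Germ cells are a main site of PRAME family expression, and of 10 oocyte and germ cell genes 6 were tested, with 2 higher and 4 lower in TKO-2i (31.9% and 30.6% of all tested genes) and a median log2 fold change of -1.56. With at least 10 counts in every sample 3 were called, so that 3 of the 4 lower genes, and with them the sign of the median, rest on genes with few counts in some library. The list summed to 180, 207 and 186 TPM in TKO-2i and 79.5, 83.6 and 78.1 TPM in TKO-serum. Dazl, the most abundant, had 153, 179 and 162 TPM in TKO-2i and 58.3, 60.2 and 56.9 TPM in TKO-serum. Ddx4 went the other way, with 1.98, 2.34 and 1.74 TPM in TKO-2i and 8.64, 10.5 and 8.60 TPM in TKO-serum. The oocyte gene Oosp1 was at 0 in all 6 libraries, and 7, 5 and 5 of the 10 genes had over 3 counts in TKO-2i and 8, 9 and 9 in TKO-serum. Their part in the levels of the family was not tested.

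Markers of other cell types that a stem cell culture could hold were also read. Of 6 primitive endoderm markers, all tested, 5 fell in TKO-2i and 1, Gata4, was not called, with a median log2 fold change of -2.13, where 31.9% of all tested genes were called higher and 30.6% lower. With at least 10 counts in every sample 3 were called. Gata4 had 2.32, 2.72 and 2.20 TPM in TKO-2i and 3.12, 3.31 and 4.81 TPM in TKO-serum, without overlap in TPM. Its CPM overlapped, with 6.02, 6.05 and 5.70 in TKO-2i and 6.30, 5.81 and 7.92 in TKO-serum. Gata4 passed the threshold as lower with length-scaled TPM counts (-0.54) and with limma on log2(TPM + 1) (-0.46) and log2(TPM + 0.1) (-0.59). Sox17 no longer passed with length-scaled TPM counts (-0.46) or without TKO-serum replicate 2 (-0.49). They summed to 4.56, 5.50 and 4.32 TPM in TKO-2i and 9.24, 10.6 and 11.6 TPM in TKO-serum, with Gata4 the most abundant. Of 6 trophoblast markers 3 rose, 2 fell and 1 was not called (median 0.35; 31.9% and 30.6% of all tested genes were called higher and lower), with sums of 42.8, 41.1 and 39.0 TPM in TKO-2i and 35.4, 35.0 and 32.9 TPM in TKO-serum. Tfap2c, which stem cells also express, was the most abundant of these. The log2 fold changes were 0.51 for Tfap2c, 2.81 for Eomes, -3.37 for Ascl2 and 4.28 for Cdx2, which had 15, 19 and 7 counts in TKO-serum. Of 6 fibroblast markers 3 were tested, of which 2 fell and 1 was not called (median -0.41; 30.6% of all tested genes were called lower), with sums of 4.12, 4.79 and 4.51 TPM in TKO-2i and 5.80, 6.44 and 5.86 TPM in TKO-serum, most of it Thy1. No marker of these 3 lists was at 0 in all libraries, and their part in the levels of the 9 genes was not tested.

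Likeness to Pramef12, the most abundant of the 9 genes, and to BC061212, whose lower bound on the fall was the highest of the 3 genes at 0 in 2i, was described over the 6 libraries by Pearson's r of log2(CPM + 1), among 13992 genes with a mean of at least 1 CPM. The genes outside the family most like Pramef12 were Acly (r = 0.99989), Serpinb1a (0.99982) and Uhrf1 (0.99981). Those most like BC061212 were Rspo1 (0.99979), Ccm2l (0.99953) and Gm4303 (0.99931). The 6 libraries fall into 2 groups by medium, so that any gene with tight replicates and a difference between media has a high r. An r over 0.99 was found for 1054 genes with Pramef12 and for 891 with BC061212, and the values describe these libraries only.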

How the data were processed

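RNA-seq libraries of TKO cells, 3 per medium, were grouped by their labels. For each transcript and library the authors deposited an estimated count, in which shared reads are divided between transcripts, and a TPM scaled for effective length, together with the lengths in bases. The column layout is that of salmon; the tool, its version and its index are not given in the sources used here. The paper's methods name Tophat V2 and DEseq, and the submitters' processing notes name mm10.

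Transcripts were matched to GENCODE M21 (GRCm38), and between 0.0473% and 0.0643% of a library's counts lay on unmatched transcripts and were left out. Counts and TPM were summed per gene. Rounded counts were filtered with filterByExpr, normalised by TMM and tested with edgeR 4.0.16 (R 4.3.3; quasi-likelihood test, Benjamini-Hochberg adjustment over 18177 genes), with the medium as the only factor, and called at an adjusted p of 0.05. The code was tested on simulated data. CPM used TMM-normalised library sizes, whose 3-count floor is given with the values. Ratios of pooled CPM, from summed counts over summed normalised library sizes, have exact (Clopper-Pearson) 95% intervals. These and the floors reflect counting error alone, as PCR copies are not marked. Words of 31 bases were compared over all annotated transcripts, and identity was taken from local alignments (Biopython 1.88).

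The members and gene lists were chosen with earlier results of these data known. Named genes are the 9 members, other family genes with a mean of at least 1 TPM in either group, and for 2 members the 3 genes of highest r. List genes were named from up to 4 of the most abundant per list above the same level, and not all of these are named. Neighbouring genes, and Gm13057, Gm13043, Oosp1 and copies summed with a member, were named after their values were seen. Family genes were matched by symbol, or through RefSeq by symbol, synonym or gene ID.

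Alternatives were DESeq2 1.42.0, its size factors within edgeR, no low-count filter, a minimum of 10 counts in every sample, length-scaled TPM counts, limma 3.58.1 on log2(TPM + 1) and log2(TPM + 0.1), the replicate number as a block, each library left out, only the most abundant transcript of a member, and copies sharing at least 50% of words summed. Summing copies that share 20% of words was added after seeing the data.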

Additional observations from a re-analysis of the deposited data

How the results depend on the processing

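The 7 tested members kept their direction and their side of the threshold in all 105 alternative values, which the choice of members partly fixes. The log2 fold changes lay between 0.74 and 0.95 for Pramef12, 0.27 and 0.48 for Pramef8, 2.19 and 2.83 for Pramel6 and 1.06 and 2.31 for Pramef17, the lowest for Pramef17 under limma on log2(TPM + 1), where low genes change less. Leaving out each library in turn gave 0.86 to 0.95, 0.42 to 0.48, 2.59 to 2.83 and 1.96 to 2.31 for the same genes. Fitted values of the 3 members with 0 counts in TKO-2i depend on the prior count and are not given as folds; with at least 10 counts in every sample they have no value. Summed with copies sharing 20% of words, a rule chosen after seeing the data, the values were -6.53 for Pramef6, -5.96 for Pramef25, -6.95 for BC061212 and 2.23 for Pramef17.

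With at least 10 counts in every sample, fewer genes were tested and fewer called: 3 of the other family genes in place of 12, 2 of the 2-cell-like markers in place of 16, 3 of the primitive endoderm markers in place of 5 and 3 of the oocyte and germ cell genes in place of 6. The other 109 list counts and 13 counts of other family genes were within 1.5 times their value. Single genes other than the members were run for 37 list and other family genes, some of them not named above. Of their values 492 kept their side of the threshold, 11 came to pass it, 6 no longer did and none reversed. Neighbouring genes and genes outside the lists and the family were not run. All-gene counts lay between 9804 and 12568.

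A replicate block in the fit gave 12539 called genes in place of 11361. Same-numbered samples had correlated deviations of 0.242, 0.329 and 0.014 across genes, so the numbers do not clearly pair the samples and the block is an alternative only.

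Depth limits Pramel4 and Pramel5, with at most 8 counts per library, and the copies whose reads are shared: the split between Pramef17, BC061212, Pramef25 or Pramef6 and their copies rests on the quantifier. With 3 libraries per medium and medium, LIF dose, serum and inhibitors changed together, no component can be told apart. Transcripts absent from the annotation were not seen.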
